A study of Mus musculus with 2 samples.

Results

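Oxidative phosphorylation genes encode the respiratory chain and the ATP synthase of the mitochondrial inner membrane. They were chosen by name: protein-coding genes with symbols that start with Nduf, Uqcr, Cox4i, Cox5, Cox6, Cox7, Cox8 or Atp5, together with Sdha, Sdhb, Sdhc, Sdhd, Cyc1 and Cycs. This gave 96 gene identifiers with 95 symbols, of which 95 identifiers had a row among the 28013 genes with transcript values. Another 13 protein genes of the mitochondrial genome were taken from a gene table of 37820 genes. Of the 96 identifiers, 90 reached 1 FPKM (fragments mapped to a transcript, scaled by its length and by all mapped fragments) in at least 1 column of the transcript table. Cox6a2 was at 0.198 FPKM in FL and at 0 in BM, and Cox7b2, Cox8b and Cox8c were listed at 0 in both. A second identifier of Atp5o was at 0 to the precision of the table, and 1 complex IV gene was not analysed here.

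Complexes I and II feed electrons from NADH and succinate into ubiquinone, complex III passes them to cytochrome c, and complex IV hands them to oxygen. Complexes I, III and IV pump protons as they do so, and complex V, the ATP synthase, uses the proton gradient to make ATP. Most subunits are encoded in the nucleus and imported, while a small set of core subunits is made from mitochondrial DNA. Haematopoietic stem cells (HSCs) of adult marrow are known as mostly quiescent cells that lean on glycolysis, whereas those of the fetal liver divide.

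The study profiled polyadenylated RNA of HSCs sorted from fetal liver at embryonic day 14.5 and from adult bone marrow. The adult group comprised 2 samples, replicates 1 and 2, from B6129SF1 mice aged 6 to 8 weeks. Separate fetal samples were not analysed here, and the strain of the fetuses, the sort markers and any pooling of animals are not stated in the labels used here. The values were mean FPKM per column, made by the authors, in a table of genes and a table of transcripts, each with 1 column headed FL and 1 headed BM. No column has replicate values, so there is no SD and no test, "higher" and "lower" describe the columns, and the sequencing depth is unknown.

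In the transcript table all 10 HSC identity markers, among them Kit, Mecom, Hlf and Procr, were expressed in both columns, with a summed level of 603 FPKM in FL and 941 in BM. As a check of stage, Hmga2, which is known for its high level in fetal HSCs, was at 93.0 FPKM in FL and 3.27 in BM of this table. In the gene table it was at 111 FPKM in FL and at 96.5 in BM, so the gene table's BM column held a fetal HSC gene at the level of an FL column. The members showed the same mismatch of headers. Between the transcript FL and the gene BM column, 85 of 90 members lay within 0.25 log2 of the typical log2 ratio of -0.06. So did 78.9% of 3520 single-transcript genes. Between the columns headed BM, 22 of 90 members lay within 0.25 log2 of that pairing's typical ratio. This lower count is not separate from the members' difference between FL and BM given below, and its share over all genes is not given. The comparison of FL with BM was therefore read from the transcript table, by its headers, and the gene table is described separately. In bulk RNA, fewer cells of a type and less RNA per cell cannot be told apart.

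Nearly all nuclear oxidative phosphorylation genes had lower transcript-table values in BM than in FL, most of them by a modest factor. Their summed level was 19788 FPKM in FL and 12947 in BM, or 3.33% and 2.46% of the FPKM of all linked transcripts. The median relative log2 ratio, which is the log2 ratio of BM to FL after subtracting that of the typical gene (0.01), was -0.59 over the 90 expressed members and 0.02 over all 12221 expressed genes. The ratio lay below 0 for 87 of 90 members, against 49.1% of all expressed genes. By at least 1.5-fold, 46 members (51.1%) were lower, against 19.1% of all genes, and 1 was higher, against 23.6%. By at least 2-fold, 8 members (8.89%) were lower, which is near the 8.82% of all genes, and 0 were higher, against 13.3%. The members thus shared a small difference in 1 direction rather than large ones. The middle 50% of their ratios spanned 0.37 log2, against 0.98 for all genes, which include many at low levels. Among genes that averaged at least 50 FPKM, the middle 50% of 72 members lay between -0.77 and -0.46. That of 1855 other genes at this level lay between -0.62 and 0.07.

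**Figure D1:**
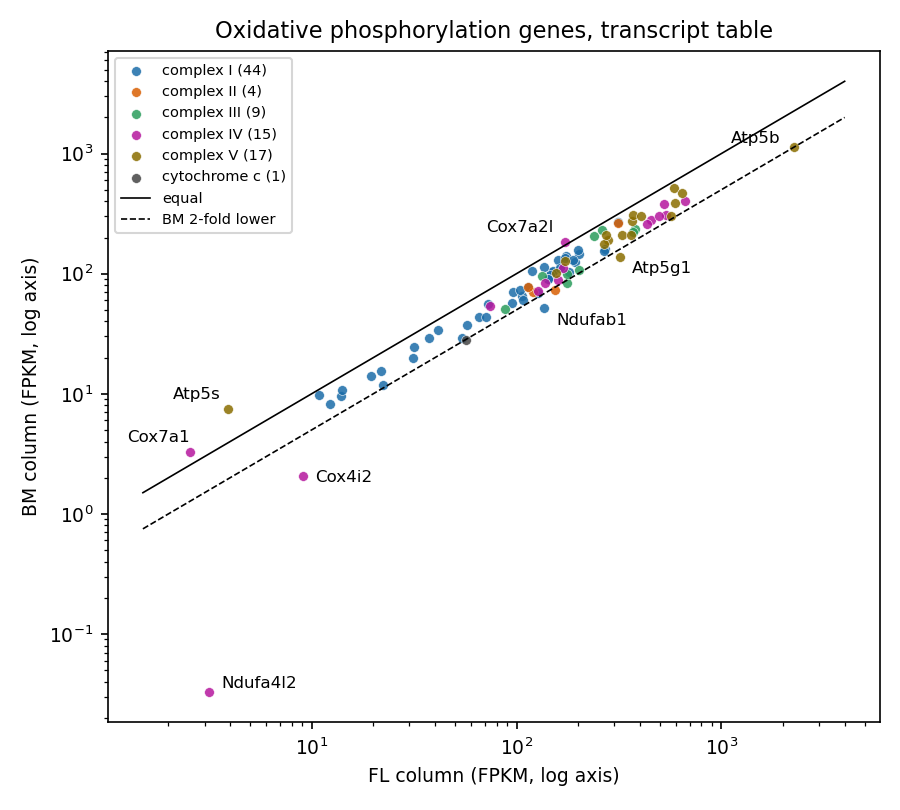
Level of each of the 90 expressed nuclear members in FL (horizontal, FPKM, log axis) and BM (vertical, FPKM, log axis), transcript table, 1 point per gene, coloured by complex. Most points lie between the line of equal values and the line of 2-fold lower BM values; Atp5s, Cox7a1 and Cox7a2l lie above equality, and Ndufa4l2 and Cox4i2 lie far below the others.

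Abundant genes as a whole were lower in BM, and the members are abundant. Of 1855 other genes that averaged at least 50 FPKM, 27.2% were at least 1.5-fold lower and the median ratio was -0.29. Of the 72 members at that level, 54.2% were at least 1.5-fold lower, 0 were at least 1.5-fold higher and the median was -0.61. Among all 1927 genes at that level, members included, 28.2% were at least 1.5-fold lower and 6.75% higher. Of the 72 members, 5 (6.94%) were at least 2-fold lower, against 6.75% of the 1927 genes, and 71 had a ratio below 0, against 72.9%. The members lay below other genes of like level between 50 and 100 FPKM (median -0.70 for 16 members and -0.25 for 1055 others). From 100 to 300 FPKM the medians were closer, at -0.56 for 41 members and -0.38 for 588 others, and from 300 FPKM upward they were -0.71 for 15 members and -0.25 for 212 others. The leading transcripts of the members are short, with a median of 709 bases against 2419 for all expressed genes. Members under 1000 bases (62) had a median ratio of -0.57 and longer members (28) of -0.61. The median over all 2273 genes with a leading transcript under 1000 bases was -0.13. When the typical gene was taken from genes at 50 FPKM or more, the members' median became -0.32 and 14 of 90 were at least 1.5-fold lower, against 11.2% of all expressed genes on that scale.

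Genes of other blood cells also differed between the transcript columns. All 12 erythroid markers were expressed, with a summed level of 872 FPKM in FL and 564 in BM; 10 were at least 2-fold lower in BM and Alas2 was at 0 there. The other 2, the carbonic anhydrase genes, were higher: Car1 was at 16.9 FPKM in FL and 44.2 in BM, and Car2, which made up most of the BM sum, at 252 and 469. The 10 neutrophil and monocyte markers summed to 521 FPKM in FL and 95.7 in BM, with 8 at least 2-fold lower. All 9 macrophage markers were at least 2-fold lower, from 196 FPKM in sum to 6.51, with Timd4 at 0 in BM. The 7 megakaryocyte markers were all higher in BM, at 207 FPKM in sum in FL and 900 in BM. The 8 endothelial markers summed to 283 FPKM in FL and 138 in BM, with 4 at least 2-fold lower, and the 6 hepatocyte markers, of which 4 were expressed, to 19.3 FPKM in FL and 3.10 in BM, where Fgb and Serpina1a were at 0. The part of such cells in the members' difference was not tested.

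Promoters of 6 members are shown because these members carry different motifs and range from Atp5g1, among those at least 2-fold lower, to Cox7a2l, which was not lower. Sequences are from RefSeq (GRCm38.p6), 5′ to 3′ on the gene's strand, from 250 bases before to 50 bases after the start, for the start nearest that of the member's leading coding transcript. Capitals mark matches to the motif of NRF1, a factor known for nuclear genes of mitochondria (GCGCA, then any base, then GCGC), the ETS motif bound by GABP (CCGGAAG or CTTCCGG), the YY1 motif (AAGATGGC or GCCATCTT) and the CCAAT box (CCAAT or ATTGG), on either strand.
Sdha promoter (chr13:74350191-74350490, minus strand): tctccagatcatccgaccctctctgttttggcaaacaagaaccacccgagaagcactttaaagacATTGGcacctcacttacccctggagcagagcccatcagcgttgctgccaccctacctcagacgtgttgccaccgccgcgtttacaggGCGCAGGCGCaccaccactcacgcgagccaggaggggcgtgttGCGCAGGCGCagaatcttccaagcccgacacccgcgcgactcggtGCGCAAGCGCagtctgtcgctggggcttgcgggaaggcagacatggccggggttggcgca
Sdhd promoter (chr9:50603800-50604099, minus strand): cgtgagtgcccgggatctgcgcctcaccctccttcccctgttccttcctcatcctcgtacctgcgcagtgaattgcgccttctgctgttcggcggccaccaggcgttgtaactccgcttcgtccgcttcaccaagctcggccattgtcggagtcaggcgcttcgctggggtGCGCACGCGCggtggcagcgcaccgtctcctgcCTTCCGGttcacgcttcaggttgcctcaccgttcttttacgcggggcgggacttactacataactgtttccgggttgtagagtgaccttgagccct
Cox6a1 promoter (chr5:115348909-115349208, minus strand): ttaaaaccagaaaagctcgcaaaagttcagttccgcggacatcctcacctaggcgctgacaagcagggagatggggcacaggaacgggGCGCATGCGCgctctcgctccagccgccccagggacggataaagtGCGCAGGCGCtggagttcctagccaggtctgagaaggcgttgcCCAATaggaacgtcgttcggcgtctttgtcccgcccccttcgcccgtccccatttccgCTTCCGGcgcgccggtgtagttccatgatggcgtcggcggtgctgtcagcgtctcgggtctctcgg
Atp5b promoter (chr10:128083057-128083356, plus strand): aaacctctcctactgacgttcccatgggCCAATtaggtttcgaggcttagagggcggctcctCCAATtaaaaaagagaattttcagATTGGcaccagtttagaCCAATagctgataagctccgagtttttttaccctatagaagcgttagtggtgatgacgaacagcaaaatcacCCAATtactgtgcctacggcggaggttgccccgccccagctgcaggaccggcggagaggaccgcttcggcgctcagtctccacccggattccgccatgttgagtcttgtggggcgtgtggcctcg
Atp5g1 promoter (chr11:96075582-96075881, minus strand): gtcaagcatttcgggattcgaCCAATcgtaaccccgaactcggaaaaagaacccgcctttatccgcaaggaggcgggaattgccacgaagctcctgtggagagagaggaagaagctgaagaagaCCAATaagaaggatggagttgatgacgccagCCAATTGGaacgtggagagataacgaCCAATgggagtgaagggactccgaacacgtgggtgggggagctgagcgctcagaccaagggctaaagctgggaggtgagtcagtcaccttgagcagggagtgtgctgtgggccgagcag
Cox7a2l promoter (chr17:83514284-83514583, minus strand): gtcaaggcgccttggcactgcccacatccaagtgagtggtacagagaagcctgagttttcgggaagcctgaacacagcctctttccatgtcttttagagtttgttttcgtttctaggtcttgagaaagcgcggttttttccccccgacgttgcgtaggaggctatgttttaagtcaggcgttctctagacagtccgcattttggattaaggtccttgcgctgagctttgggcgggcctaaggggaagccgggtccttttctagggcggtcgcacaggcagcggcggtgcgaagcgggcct
The Sdha window held 3 NRF1 matches and a CCAAT box. Sdhd held 1 NRF1 and 1 ETS match, and Cox6a1 held 2 NRF1 matches, 1 ETS match 16 bases before the start and 1 CCAAT box. Atp5b and Atp5g1 each held 5 CCAAT boxes, a pair of which overlap in Atp5g1, and no NRF1, ETS or YY1 match. Cox7a2l had none of the 4.

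A promoter window was found for 73 of the 90 expressed members. For 64 of the 73 its start lay within 100 bases of that of the leading coding transcript, but for Atp5g2 it was 3298 bases away. NRF1 matches were present in 18 of the 73 members (24.7%), Atp5g2 among them. They were in 11.2% of 8982 other expressed genes and 4.60% of all 32851 promoters of the same length. YY1 matches were present in 9 members (12.3%), against 5.13% of the others and 2.75% of all promoters. All 9 began after the start, between 11 and 39 bases on. In the 100 bases before the start 0 members had a YY1 match, against 0.81% of the others. The ETS motif was in 17 members (23.3%), against 19.8% of the others and 8.86% of all, and the CCAAT box in 33 members (45.2%), against 39.1% and 37.4%. The motif of the oestrogen-related receptors, regulators of energy metabolism (AAGGTCA or TGACCTT), was in 8 members (11.0%), against 2.96% of the others and 4.72% of all, and the CREB motif (TGACGTCA) in 5 (6.85%), against 3.14% and 1.79%. The motif of SP and KLF factors (GGGCGG or CCGCCC) was less frequent in members, with 33 of 73 (45.2%) against 66.9% of other expressed genes and 35.7% of all. At least 1 of the NRF1, ETS and YY1 motifs was in 38 members (52.1%), against 32.0% of the others, and no matches of these 3 overlapped within a member. Members with an NRF1 match had a median relative ratio of -0.63 and those without of -0.56. These are matches of letters in 1 window per gene.

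Complex I takes electrons from NADH and is the largest complex by gene number, with 44 members here. All 44 were lower in BM, with a median of -0.54, and 18 (40.9%) were at least 1.5-fold lower, against 19.1% of all expressed genes. Its summed level was 5095 FPKM in FL and 3507 in BM. The 7 core genes, which carry the flavin and iron-sulphur clusters or hold them in place, had a median of -0.66 and 4 were at least 1.5-fold lower. Ndufs7 was at 188 FPKM in FL and 131 in BM, Ndufv1 at 143 and 90.9, and Ndufs1, the least different of the core genes, at 41.3 and 33.9. The 29 accessory genes had a median of -0.54, with 12 at least 1.5-fold lower. The most abundant of them by the mean of both columns were Ndufa3, at 314 FPKM in FL and 270 in BM, Ndufb8, at 271 and 160, Ndufc2, at 268 and 155, and Ndufa7, at 200 and 158.

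Ndufab1, the mitochondrial acyl carrier protein that also sits in complex I, was the member of this complex with the largest difference, at 136 FPKM in FL and 51.8 in BM (relative log2 ratio -1.40). Non-coding transcripts made up 53.6% of its FL value, and its coding transcripts alone were at 63.4 FPKM in FL and 28.1 in BM. The 8 Ndufaf genes, assembly factors that are not part of the finished complex, were far less abundant, between 10.9 and 54.4 FPKM in FL. All 8 were lower in BM, with a median of -0.49. Only 2 (25%) were at least 1.5-fold lower, near the 19.1% of all expressed genes. Ndufaf2 was at 54.4 FPKM in FL and 28.9 in BM, and Ndufaf6 at 22.4 and 11.7. The level of Ndufaf2 is uncertain, since its gene-table BM value was 96.9 FPKM. The other assembly factors differed less: Ndufaf1 was at 21.9 and 15.4 FPKM, Ndufaf4 at 19.4 and 14.0, Ndufaf5 at 12.3 and 8.22, and Ndufaf7 at 14.0 and 10.8. Ndufaf8 was at 31.5 FPKM in FL and 24.7 in BM. Ndufaf3 was the least different gene of complex I, at 10.9 and 9.78 FPKM (-0.16).

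Complex II, succinate dehydrogenase, is encoded by nuclear genes alone, and its 4 subunits differed by unequal amounts. Sdhd, a membrane anchor, was at 154 FPKM in FL and 72.9 in BM (relative log2 ratio -1.08). Sdhc, the other anchor, was at 114 and 77.1 FPKM (-0.57). Sdhb, the iron-sulphur subunit, was at 120 and 70.3 FPKM (-0.78). Sdha, the flavoprotein that oxidises succinate, was at 314 and 264 FPKM (-0.26). Sdha also had the most NRF1 matches in the sequences above, and a link between matches and ratios was not tested. Non-coding transcripts, by the annotation, made up 59.2% of the Sdha value in FL. Its leading transcript was a retained-intron form in FL and the coding form in BM, but these forms were near equal in both columns. The retained-intron form took 42.2% in FL and 40.0% in BM, and the coding form 40.8% and 40.5%.

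Complex III had 9 members, all lower in BM, with a median of -0.73. Of the 9, 6 (66.7%) were at least 1.5-fold lower, against 19.1% of all expressed genes. The 2 genes of complex III that carry electrons between cofactors differed most in sum (1.95-fold). Cyc1, cytochrome c1, was at 176 FPKM in FL and 84.0 in BM (-1.07), and Uqcrfs1, the Rieske iron-sulphur protein, at 87.7 and 51.1 (-0.78). The core proteins Uqcrc1 and Uqcrc2, which have no cofactor, were at 177 and 99.0 FPKM and at 134 and 96.5 FPKM. Among the small subunits, Uqcr10 was at 380 FPKM in FL and 234 in BM, Uqcr11 at 369 and 222, and Uqcrq at 202 and 108. Uqcrh (263 and 231 FPKM, -0.19) and Uqcrb (238 and 207 FPKM) were the least different. Cycs, the cytochrome c that shuttles electrons from complex III to complex IV, was at 56.5 FPKM in FL and 27.9 in BM (-1.02), and at -0.85 with coding transcripts only. The testis form Cyct was at 0.0744 FPKM in FL and at 0 in BM.

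**Figure D2:**
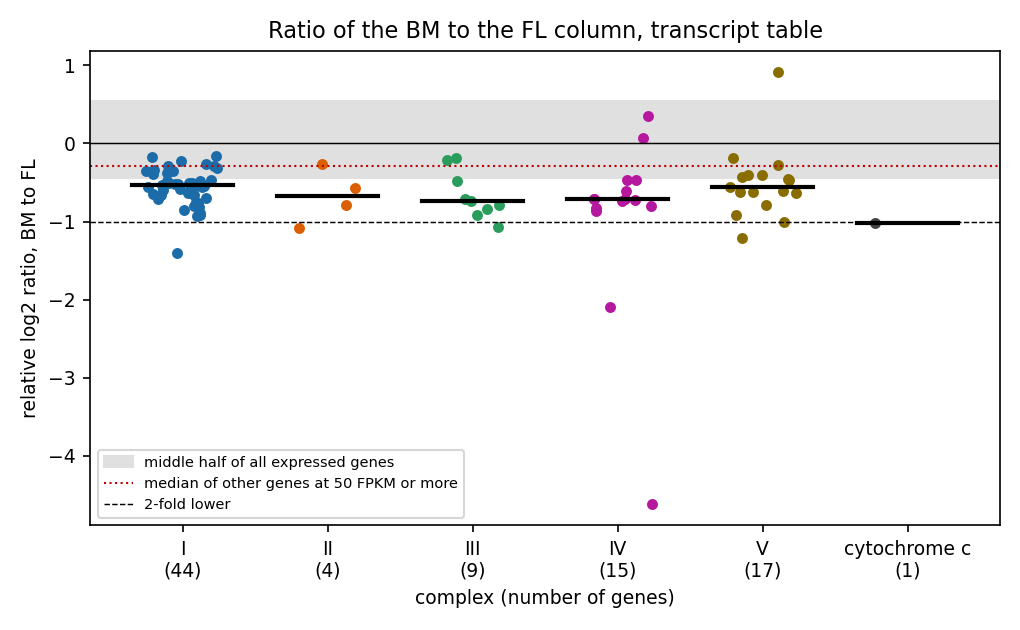
Relative log2 ratio of BM to FL (vertical) for the 90 expressed nuclear members of the transcript table, by complex, 1 point per gene with the median as a black bar. The grey band holds the middle 50% of all expressed genes and the dotted line the median of other genes at 50 FPKM or more (-0.29); the medians of complexes I to V lie between -0.54 and -0.73.

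Complex IV, cytochrome c oxidase, reduces oxygen to water, and its structural genes were all lower in BM. The 10 of them had ratios between -0.86 and -0.47, and 9 (90%) were at least 1.5-fold lower, against 19.1% of all expressed genes. Their summed level was 3701 FPKM in FL and 2295 in BM. Cox6a1 was at 662 FPKM in FL and 406 in BM, Cox7c at 538 and 311, and Cox8a, the least different of the 10, at 526 and 381. Ndufa4, named for complex I but now placed in complex IV, was at 497 and 304 FPKM, Cox6b1 at 455 and 278, and Cox6c at 432 and 261. Cox5b had the lowest ratio of the 10, at 159 FPKM in FL and 87.8 in BM. Its gene-table BM value was 726 FPKM, so the level of Cox5b is uncertain. Cox7b was at 137 and 84.0 FPKM.

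The isoform genes of complex IV, whose use is known to depend on tissue or oxygen, were at low levels except for Cox6b2. Cox4i2, the isoform known from lung and low oxygen, was at 9.08 FPKM in FL and 2.07 in BM (-2.09). Ndufa4l2, a gene induced by hypoxia-inducible factor, was at 3.14 FPKM in FL and 0.0329 in BM (-4.61, a value set in part by the pseudocount of 0.1). Cox7a1, the heart and muscle isoform, was at 2.54 and 3.26 FPKM, and 4 of the 5 muscle and heart markers with a value (Actc1, Myh6, Myh7 and Tnnt2) were at 0 in both columns. Cox6b2, known as a testis isoform, was at 74.0 FPKM in FL and 53.8 in BM, which was 14.0% and 16.2% of the FPKM of the COX6B pair. In the gene table it was at 9.80 FPKM in FL (2.16% of the pair) and 77.3 in BM (13.7%), so the gene-table FL column stood apart. The gene-table BM and transcript FL columns matched each other for most members, so their like levels do not count separately.

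Cox7a2l (also known as SCAF1), which ties complex III to complex IV in supercomplexes, was not lower in BM. It was at 173 FPKM in FL and 183 in BM (0.08), and at 150 FPKM in both columns of the gene table. Its relative Cox7a2, the subunit of free complex IV, was at 128 FPKM in FL and 72.2 in BM. Cox7a2l therefore made up 57.1% of the FPKM of the COX7A genes in FL and 70.8% in BM, while Cox7a2 made up 42.1% and 27.9%. In the gene table the share of Cox7a2l was 56.3% in FL and 52.2% in BM. The higher share was seen in the transcript BM column and in none of the other 3. Among these, the gene-table BM and transcript FL columns matched each other for most members and do not count separately. The other supercomplex genes, Higd1a and Higd2a, were lower in BM, at 17.7 and 12.9 FPKM and at 113 and 74.4 FPKM.

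**Figure D3:**
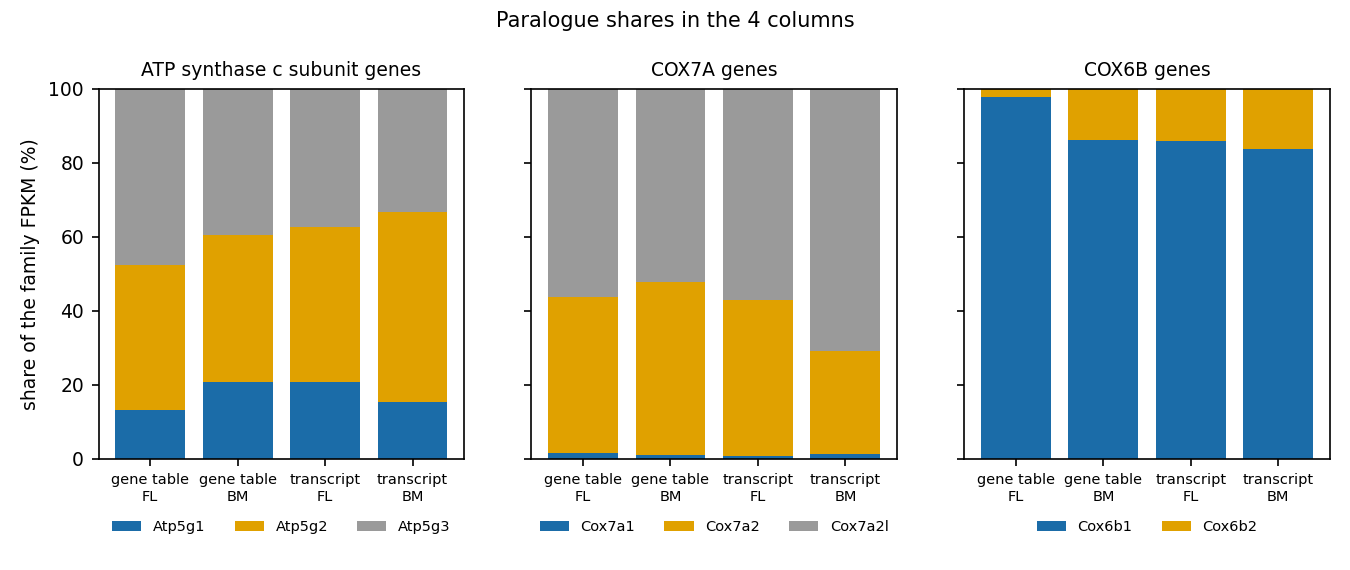
Share of each gene (vertical, percent) in the FPKM of its paralogue family, for the ATP synthase c subunit, COX7A and COX6B genes, in each of the 4 columns (horizontal). Cox7a2l takes 70.8% of its family in the transcript BM column against 52.2% to 57.1% elsewhere, and Cox6b2 takes 2.16% in the gene-table FL column against 13.7% to 16.2% elsewhere. The gene-table BM and transcript FL columns matched each other for most members, though less closely for Cox7a2l, and do not count separately.

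Complex V, the ATP synthase, was the most abundant complex in sum among the nuclear genes of the transcript table, with 7944 FPKM in FL and 5058 in BM. Of its 17 expressed members 16 were lower in BM, and the median was -0.56. By at least 1.5-fold, 8 (47.1%) were lower, against 19.1% of all expressed genes. The catalytic beta subunit gene Atp5b was the highest nuclear member of all, at 2251 FPKM in FL and 1127 in BM (-1.0). A transcript annotated as non-coding took 61.2% of the Atp5b value in FL, and the coding transcripts alone were at 871 and 463 FPKM (-0.89), which is short of 2-fold. Atp5a1, the alpha subunit that alternates with beta in the F1 head, was at 592 and 389 FPKM (-0.61). Atp5e, the epsilon subunit of the central stalk, was among the least different, at 585 and 515 FPKM (-0.19). Summed over the 5 F1 genes the FL column was 1.66-fold higher.

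The c ring, which turns as protons pass, is encoded by 3 genes that make the same mature peptide from different precursors. Atp5g1 was at 319 FPKM in FL and 138 in BM (-1.21), Atp5g2 at 642 and 467 (-0.46), and Atp5g3 at 570 and 303 (-0.92). The share of Atp5g1 in the 3 genes was 20.8% in FL and 15.2% in BM, and that of Atp5g2 was 41.9% and 51.4%. In the gene table Atp5g1 took 13.2% in FL and 20.7% in BM, so the lowest share was that of the gene-table FL column. The peripheral stalk, which keeps the head from turning, differed less, with sums 1.45-fold higher in FL, as did the membrane accessory genes at 1.35-fold. Atp5o was the most different stalk gene, at 364 FPKM in FL and 212 in BM. Atp5s, the coupling factor B gene, was the only member at least 1.5-fold higher in BM, at 3.88 FPKM in FL and 7.42 in BM (0.91).

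Most members kept to 1 leading transcript. Of 57 members with more than 1 linked transcript, 54 had the same leading transcript in FL and BM, and the exceptions were Atp5j2, Ndufaf4 and Sdha. In Sdha the leading forms were near equal in both columns. Another 33 members had 1 linked transcript. Non-coding transcripts took 25% or more of the FL value in 10 members.

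In the gene table the members were not lower in BM. The median relative log2 ratio of 90 members was 0.18, after subtracting the typical gene's 0.24, and 81 had a higher raw value in BM than in FL. The relative ratio was below 0 for 28 members, against 53% of all genes. At least 2-fold higher were 5 of the 90 members, against 12.3% of all 13834 expressed genes. None of the members was at least 2-fold lower, against 23.6% of all genes. At least 1.5-fold higher were 18 of the 90, against 22.2% of all genes, and 1 was at least 1.5-fold lower, against 31.9%. The 5 members past 2-fold were Cox6b2, Cox4i2, Ndufa4l2, Ndufa12 and Sdha. Ndufa12 was at 69.1 FPKM in FL and 207 in BM, and Sdha at 120 and 333. In the transcript FL column non-coding transcripts made up 56.5% of the Ndufa12 value and 59.2% of the Sdha value. Their part in these 2 ratios was not tested. Since the BM column of the gene table resembled the transcript FL column, the gene-table ratios were not read as adult against fetal. The FL column of the gene table also stood apart in other cell types. Its 8 endothelial markers summed to 2780 FPKM, against 299 in the BM column, and its 6 stromal markers to 749.8 FPKM, against 11.6. Its 12 erythroid markers summed to 78.3 FPKM, against 649 in the BM column, and its 10 neutrophil and monocyte markers to 38.9, against 561. The part of such cells in these ratios was not tested.

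The genes of the mitochondrial genome had values in the gene table only. Among transcripts, 9 of the 13 were listed at 0 and 4 had no linked transcript, so the transcript BM column gave no value for them. In sum they took 4.26% of all FPKM in FL and 4.01% in BM, more than the 2.58% and 3.04% of all nuclear members. With ribosomal protein genes left out of the total, the mitochondrially encoded genes took 5.27% in FL and 5.32% in BM, so the order of the columns turned with the total used. Raw values were higher in BM for 9 genes and lower for 4, where the typical gene was itself 0.24 log2 higher in BM. After subtracting this, the median over the 12 genes at 1 FPKM or more was 0.11. The relative ratio was below 0 for 3 of the 12, against 53% of all genes.

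The complex I genes of the mitochondrial genome, apart from mt-Nd4l, all had higher raw values in BM. The gene mt-Nd1 was at 1501 FPKM in FL and 1983 in BM, mt-Nd2 at 491 and 742, mt-Nd3 at 1237 and 1769, and mt-Nd4 at 666 and 863. The largest differences were those of mt-Nd5, at 273 and 577 FPKM (relative log2 ratio 0.84), and mt-Nd6, the gene on the other strand, at 245 and 607 FPKM (1.07). The values of mt-Nd4l were 0.448 and 0.172 FPKM. It overlaps mt-Nd4 on the mitochondrial genome, and its separate value is uncertain.

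The complex IV and V genes of this genome differed in both directions. The catalytic subunit mt-Co1 was at 4506 FPKM in FL and 3971 in BM (-0.42), mt-Co2 at 3667 and 4497, and mt-Co3 at 4640 and 3664 (-0.58). The complex III gene mt-Cytb was at 1758 and 2078 FPKM. The gene mt-Atp8 was at 5542 and 6906 FPKM and mt-Atp6 at 510 and 449.7 (-0.42). These ATP synthase genes overlap and share a transcript, yet mt-Atp8 was listed 10.9 times as high as mt-Atp6 in FL and 15.4 times in BM, so their separate levels are uncertain.

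**Figure D4:**
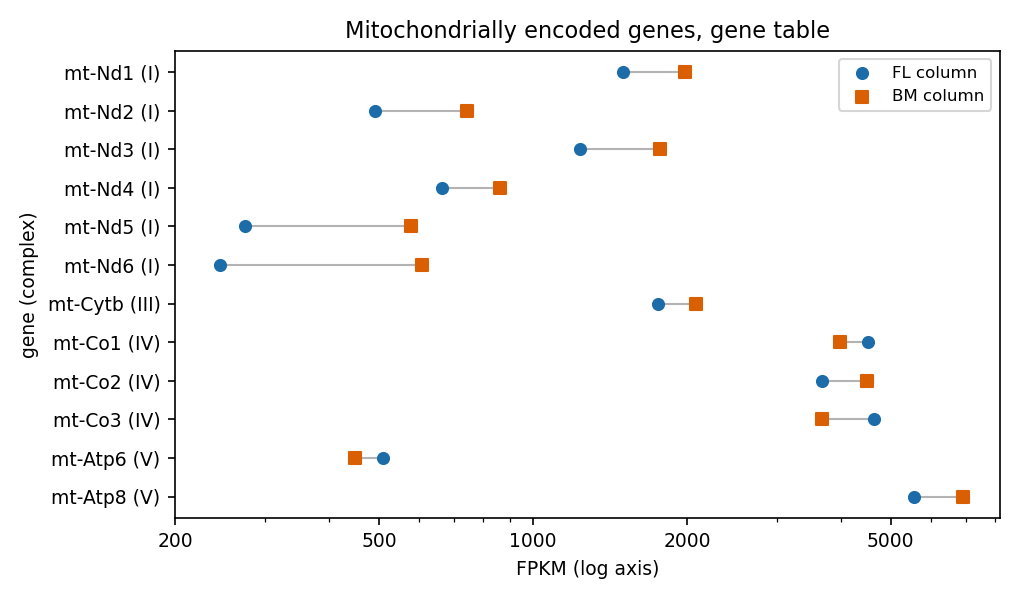
Level of 12 mitochondrially encoded protein genes (horizontal, FPKM, log axis) in the FL (circles) and BM (squares) columns of the gene table, by gene and complex. The complex I genes have higher BM values, up to mt-Nd6 at 245 and 607 FPKM, while mt-Co1, mt-Co3 and mt-Atp6 are lower in BM; mt-Nd4l, under 1 FPKM, is not drawn.

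The nuclear genes that make or serve the complexes fell into lists with unlike values in the transcript table. Mitochondrial ribosomal protein genes, which translate the mitochondrially encoded subunits, were as low in BM as the members themselves. Their median was -0.66, and 44 of 77 (57.1%) were at least 1.5-fold lower, so a lower BM value was not particular to oxidative phosphorylation. By at least 2-fold, 10 were lower: Mrpl21 (97.6 FPKM in FL and 39.8 in BM), Mrpl12 (121 and 50.8), Mrps22, Mrpl41, Mrpl58, Mrpl15, Mrpl40, Mrps28, Mrps36 and Mrpl37. The most abundant, Mrps21, was at 191 and 127 FPKM. Cytosolic ribosomal protein genes, which are also short and abundant, had a median of -0.16, and 8 of 91 (8.79%) were at least 1.5-fold lower.

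Assembly factors of complex IV had a median of -0.53, with 8 of 21 (38.1%) at least 1.5-fold lower and 1 higher. Among all expressed genes 19.1% were lower and 23.6% higher by that factor. Cox17, a copper chaperone, was at 239 FPKM in FL and 123 in BM, Coa3 at 113 and 64.6, and Cox14 at 109 and 127. Past 2-fold were Coa4, at 12.5 and 4.77 FPKM, and Cox10, a haem A synthesis gene, at 18.3 and 8.69. Complex I assembly factors outside the Ndufaf genes had a median of -0.51. Of these, 3 of 8 (37.5%) were at least 1.5-fold lower, among them Ecsit at 24.7 and 13.2 FPKM. For complexes II, III and V the median over 12 assembly factors was -0.04. At least 1.5-fold lower were 2 (16.7%), below the 19.1% of all expressed genes, including Uqcc2, at 201 and 92.0 FPKM.

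Genes that keep and transcribe mitochondrial DNA did not share the lower values. Their median was 0.03, and 0 of 12 were 1.5-fold lower or higher. Tfam, which packages and transcribes mitochondrial DNA, was at 77.4 FPKM in FL and 77.8 in BM, Ssbp1 at 61.7 and 51.4, and the helicase gene Twnk at 19.4 and 18.6. Of 9 expressed genes for nuclear regulators of mitochondrial genes, 1 (11.1%) was at least 1.5-fold lower and 1 higher, with a median of -0.31. Nrf1 was at 35.9 FPKM in FL and 29.1 in BM, Gabpa at 18.8 and 21.5, and Yy1 at 67.4 and 58.6. Ppargc1a, the coactivator PGC-1alpha, was at 0.249 FPKM in FL and 1.03 in BM.

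The tricarboxylic acid cycle and pyruvate dehydrogenase, which supply NADH and succinate, had a median of -0.51 over 17 genes. Of these, 6 (35.3%) were at least 1.5-fold lower, against 19.1% of all expressed genes. Mdh2, malate dehydrogenase, was at 248 FPKM in FL and 136 in BM, and Idh3g at 132 and 119. Suclg1 was at 2.69 FPKM in FL and 0.524 in BM, but at 89.8 in the gene table's BM column, so its level is uncertain.

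**Figure D5:**
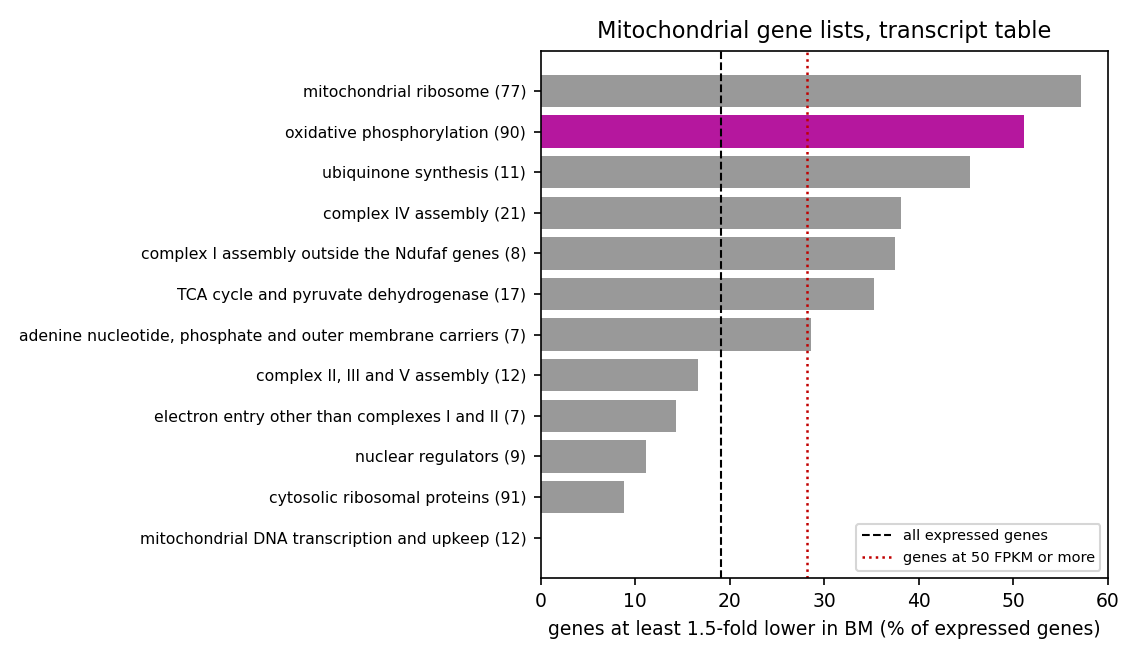
Share of expressed genes at least 1.5-fold lower in BM in the transcript table (horizontal, percent) for the members and 11 other gene lists, with the number of expressed genes in brackets. The members (51.1%) and the mitochondrial ribosome (57.1%) lie above the 19.1% of all expressed genes (dashed line) and the 28.2% of genes at 50 FPKM or more (dotted line). So do ubiquinone synthesis (45.5%), complex IV assembly (38.1%), complex I assembly outside the Ndufaf genes (37.5%), the tricarboxylic acid cycle list (35.3%) and, narrowly, the carriers (28.6%). The other lists lie below both lines, and the mitochondrial DNA list is at 0.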

How the data were processed

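The authors deposited FPKM values in a gene and a transcript table, each with an FL and a BM column of mean values. TopHat, Cufflinks, featureCounts, Subread, edgeR and the build mm9 appear, without versions, per the submitters' processing notes. Replicate libraries and counts were not used here. Symbols, transcript links and lengths came from GENCODE M21 by identifier. Unlinked transcripts held 10.4% of the FL and 10.9% of the BM FPKM. Transcript FPKM were summed per gene. The relative log2 ratio was log2((BM + 0.1) / (FL + 0.1)) minus its median over genes that reached 1 FPKM in each column, which understates differences of low genes. Expressed means 1 FPKM or more in either column. The script was tested on simulated data. Python 3.11.15, numpy 2.4.6, pandas 2.3.3 and matplotlib 3.10.9 were used.

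The members and lists were chosen with earlier results of these data known. Named were the genes of complex II, Cyc1, Cycs, the mitochondrially encoded genes, the 4 highest structural members and the extremes of each complex, members past 2-fold, paralogues, Ndufaf genes, and of other lists the 3 highest and those past 2-fold. Other genes named were chosen after their values were seen. Alternatives changed the pseudocount, filter, scaling, transcripts used and columns. No test was possible without replicate values. A gene that this rule would name is not reported here.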

Additional observations from a re-analysis of the deposited data

How the results depend on the processing

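In the transcript table the members' median stayed below 0 under every alternative. It was -0.32 when centred on genes at 50 FPKM or more. Of 90 members, 14 were then at least 1.5-fold lower, against 11.2% of all genes on that scale, and 2 higher. At least 2-fold lower were 3, against 6.24% of all genes, and 1 was higher. Centred on genes with leading transcripts under 1000 bases it was -0.44. On that scale 25 members were at least 1.5-fold lower, against 14.1% of all genes. At least 2-fold lower were 4, against 7.17%, and 1 was higher. With upper-quartile scaling 4 were at least 2-fold lower, against 7.75% of all genes. Each of these scalings was enough to move Atp5b, Cycs, Cyc1 and Sdhd under 2-fold, and Atp5g1 too under the first. In the gene table the median was 0.42 without centring, with 8 members at least 2-fold higher, 29 at least 1.5-fold higher and 0 lower. The median was 0.067 centred on genes at 50 FPKM or more, with 11 members at least 1.5-fold higher. It was 1.46e-05 centred on short transcripts, with 7 members at least 1.5-fold higher and 3 lower, against 37.1% of all genes lower. Shares of all genes that were higher on these scales are not given here. The count at least 1.5-fold lower there was 0 with a pseudocount of 1 FPKM or a minimum of 5 FPKM and 2 without a minimum. No called value changed sign. With the gene-table BM column in place of the transcript FL column, the median was -0.52. These columns matched each other for most members, so this alternative is not a separate check. Using coding transcripts only, and leaving out members whose values differed between tables, were chosen after seeing the data. No paired analysis was possible because the columns carry no replicate numbers, and for the same reason no replicate could be left out. Depth is unknown, so low values such as that of Ndufa4l2 have no interval.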

Other observations

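Electron donors to ubiquinone other than complexes I and II were not lower in BM as a list in the transcript table. Their median relative log2 ratio was 0.19 over 7 expressed genes, with 1 (14.3%) at least 1.5-fold lower and 1 higher. Among all expressed genes 19.1% were lower and 23.6% higher by that factor. Etfb, a subunit of the electron transfer flavoprotein of fatty acid oxidation, was at 278 FPKM in FL and 318 in BM, and Etfa, its partner, at 84.5 and 76.9. Sqor, which oxidises sulphide, was at 2.80 and 7.73 FPKM, and Dhodh, which makes pyrimidines, at 48.3 and 28.2.

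Ubiquinone synthesis genes differed in both directions. Coq7 was at 54.2 FPKM in FL and 21.9 in BM, and Coq4 at 23.3 and 10.8. Coq8a, a kinase-like gene of the pathway, was at 25.1 FPKM in FL and 54.8 in BM. Over 11 genes the median was -0.40, with 5 (45.5%) at least 1.5-fold lower and 1 higher. Of 7 expressed carriers of adenine nucleotides, phosphate and the outer membrane, 2 (28.6%) were at least 1.5-fold lower, near the 28.2% of all genes at 50 FPKM or more. Slc25a5, an ADP and ATP carrier, was at 609 and 376 FPKM and the phosphate carrier Slc25a3 at 398 and 281.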
